A study of Mus musculus with 9 samples.

Results

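LIN28A, LIN28B, TRIM71, DIS3L2, HMGA2 and the IGF2BP proteins act around the let-7 microRNAs, and 8 genes that encode them were followed here in control and Rbbp4 mutant mouse embryonic stem cells (ESCs). They are Lin28a, Lin28b, Trim71, Dis3l2, Hmga2, Igf2bp1, Igf2bp2 and Igf2bp3, taken by gene symbol out of 25239 symbols with a count. The set was put together after it had been seen that Lin28a was lower in both mutants while most pluripotency genes were higher, so the differences of these 8 genes from the control are a description, given without p-values, and where calls are counted nothing is read from them. All 8 passed the filter on low counts, as did 14125 of the symbols, and they passed it in every line.

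RBBP4 is a histone-binding subunit of several chromatin complexes, among them PRC2 and the NuRD and SIN3 deacetylase complexes. Messenger RNA was sequenced from E14 ESCs (strain label 12910la) with the genotype Rbbp4+/+, which served as the control, and from the lines Rbbp4Ins/Ins and Rbbp4Ins/Del, with 3 libraries per line. Rbbp4Ins/Ins carries a short in-frame insertion in Rbbp4 on both alleles, and Rbbp4Ins/Del has it on a single allele, with a short in-frame deletion on the other. Both were made with CRISPR-Cas9 in E14 cells and all lines grew in serum with leukemia inhibitory factor. Each mutant line is a single clone, so an effect of the mutation and a difference between clones cannot be told apart, and nothing states that the libraries of a line came from separate cultures. The p-values given below therefore measure the spread between libraries, which may be technical.

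The libraries held between 15838064 and 21366868 counted reads, and replicates of a line differed by more than counting noise. Rbbp4 itself had 9932, 9965 and 10117 normalized counts in the control, 5485, 5551 and 5776 in Rbbp4Ins/Ins and 10129, 10344 and 10603 in Rbbp4Ins/Del. A normalized count is the read count scaled to the mean effective size of the 9 libraries. Counts per gene do not show the alleles, so these values do not check the genotypes. They are also not a measure of protein, and by Western blot the study reported less RBBP4 in its mutants than in controls. The summed level of 8 ESC marker genes lay between 78715 and 83423 normalized counts in the control, between 101530 and 103290 in Rbbp4Ins/Ins and between 99641 and 102320 in Rbbp4Ins/Del. Of the 8, Utf1 had means of 4354 in the control, 3124 in Rbbp4Ins/Ins and 2648 in Rbbp4Ins/Del, and Pou5f1 had 18059, 16615 and 17668. The other 6 had higher means in both mutants. Reads of all 8 markers were thus present in every line, though not all markers went the same way.

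Background on the pathway is as follows. let-7 microRNAs pair through their seed, the bases from position 2 to 8, with messenger RNAs and lower their translation and stability. In ESCs the let-7 genes are transcribed, but the RNA-binding proteins LIN28A and LIN28B bind the loop of the precursor, where LIN28 contacts a GGAG motif. LIN28A recruits the uridylyltransferases TUT4 and TUT7. The exonuclease DIS3L2 degrades the uridylated precursor. As ESCs differentiate, LIN28 is lost and mature let-7 accumulates. TRIM71, HMGA2, IGF2BP1 and LIN28 itself are textbook targets of let-7, and the IGF2BP proteins bind and stabilize messenger RNAs.

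The sequences that join these genes are the let-7 seed, the loop motif of its precursors and the matches in the messenger RNAs. In RefSeq's table for GRCm38.p6, 11 mature microRNAs shared the seed GAGGUAG. Of these, 4 are shown to let the shared and the variable bases be seen, 5′ to 3′ with the seed in capitals.
let-7a-5p: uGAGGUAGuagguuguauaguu
let-7e-5p: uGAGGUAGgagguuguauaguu
let-7g-5p: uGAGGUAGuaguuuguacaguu
miR-98-5p: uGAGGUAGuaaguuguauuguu

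Between the arms of the hairpin, GGAG was found in 9 of 12 let-7 hairpins and not in those of Mirlet7b, Mirlet7c-2 and Mir98. One hairpin of each kind is shown, that of Mirlet7g (GRCm38 chr9:106178840-106178927, plus strand) with GGAG in capitals and that of Mirlet7b (GRCm38 chr15:85707319-85707403, plus strand) without it.
Mirlet7g hairpin: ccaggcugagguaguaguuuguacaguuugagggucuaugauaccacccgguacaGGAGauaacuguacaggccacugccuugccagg
Mirlet7b hairpin: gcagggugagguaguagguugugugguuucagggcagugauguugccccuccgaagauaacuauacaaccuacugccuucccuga

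The complement of the seed, CTACCTC, was searched on the transcript strand of 1 annotated 3′ UTR per gene in GENCODE M21 on GRCm38. It occurred in the 3′ UTR of 7 of the 8 genes, against 9.04% of 20996 genes with an annotated 3′ UTR. The UTRs of these 7 genes are long, between 1784 and 6337 bases, and of the 5814 other genes with a UTR in this range 17.1% held a match. The match extended by an A opposite base 1 of the microRNA, CTACCTCA, was present in the same 7 genes, against 3.06% of all genes and 5.85% of those in this range of length. The windows below give 1 match of this longer kind for each of the 7 genes and both for Lin28a, with the 7-base match in capitals at the 3′ end, and all lie on the minus strand of GRCm38.
Lin28a chr4:134005189-134005210: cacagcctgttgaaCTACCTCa
Lin28a chr4:134004551-134004572: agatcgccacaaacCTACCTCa
Lin28b chr10:45381022-45381043: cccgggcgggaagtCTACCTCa
Trim71 chr9:114512472-114512493: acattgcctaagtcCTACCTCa
Hmga2 chr10:120364224-120364245: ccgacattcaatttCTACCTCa
Igf2bp1 chr11:95961778-95961799: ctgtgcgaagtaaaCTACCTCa
Igf2bp2 chr16:22059473-22059494: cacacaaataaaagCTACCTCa
Igf2bp3 chr6:49086787-49086808: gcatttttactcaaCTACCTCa

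**Figure D1:**
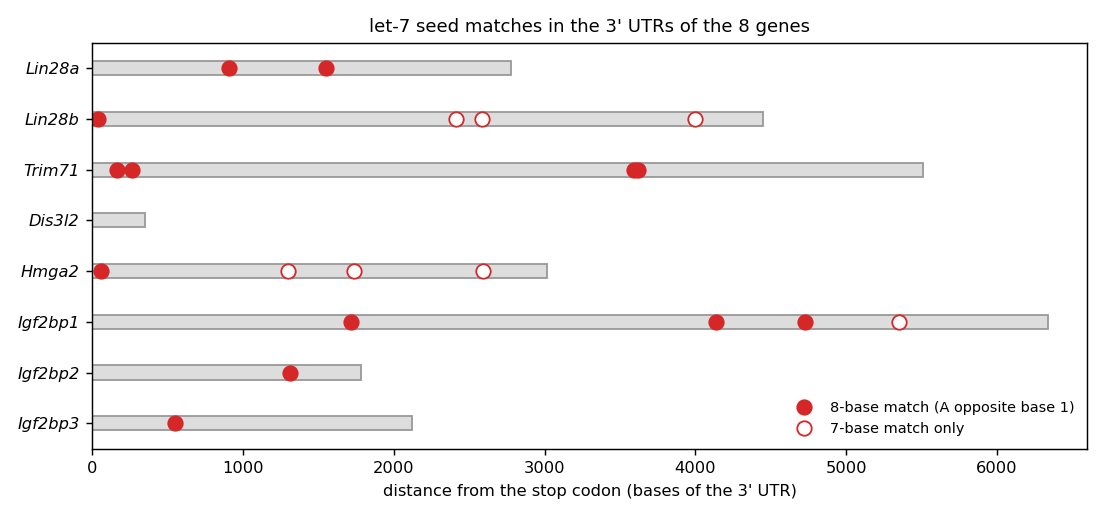
Position of let-7 seed matches in the annotated 3′ UTR of each gene, as the distance in bases from the stop codon. Grey bars give the length of the UTR, filled circles matches of 8 bases and open circles matches of 7 bases only. Lin28b, Trim71, Hmga2 and Igf2bp1 have 4 matches each, and the 350 bases of Dis3l2 have none.

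Trim71, Hmga2, Lin28b and Igf2bp1 each held 4 matches, and at least 4 were found in 0.0572% of all genes and in 0.103% of the other genes in this range of length. All 4 matches of Trim71 were of the longer kind, against 3 of 4 in Igf2bp1 and 1 of 4 in Hmga2 and in Lin28b. Lin28a held 2 matches, at bases 909 and 1547 of a UTR of 2775 bases. Igf2bp2 and Igf2bp3 held 1 match each, at bases 1313 and 548 of their UTRs. In Lin28b and Hmga2 the first match began 36 and 58 bases after the stop codon. A match is a stretch of letters and does not show that let-7 acts on it. The UTR taken for Dis3l2 is short, at 350 bases, and its lack of a match says only that these letters are not in this window.

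**Figure D2:**
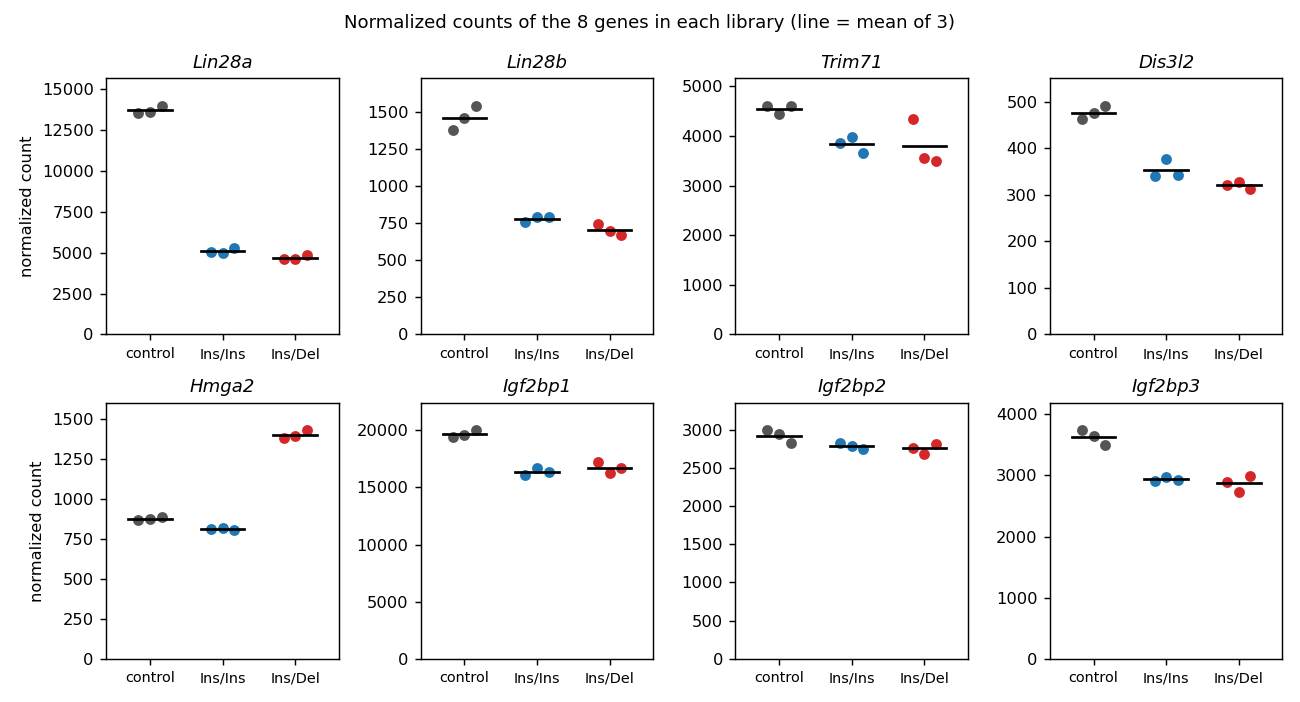
Normalized counts of the 8 genes in the 3 libraries of each line, with the mean as a line and each vertical axis from 0. Lin28a and Lin28b are lower in all 6 mutant libraries, and Hmga2 is higher in Rbbp4Ins/Del only, at 1382 to 1431 against 807 to 887 in the other 6 libraries.

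Lin28a and Lin28b, which encode the proteins that block let-7 maturation, were the members with the largest differences from the control. Lin28a lies on the minus strand of chromosome 4 of GRCm38 (the mm10 build), from 134003330 to 134018841. Its normalized counts were 13558, 13606 and 13977 in the control, 5046, 4984 and 5260.3 in Rbbp4Ins/Ins and 4590.0, 4602 and 4829 in Rbbp4Ins/Del. Every mutant library was below every control library, and every Rbbp4Ins/Del library was below every Rbbp4Ins/Ins library. The level was 2.69-fold lower in Rbbp4Ins/Ins (log2 fold change -1.43, SE 0.030) and 2.94-fold lower in Rbbp4Ins/Del (-1.55, SE 0.030). A gene on the opposite strand, Gm13061, overlaps 5.86% of the exonic length of Lin28a, and since the strand setting of the counting is not given in the sources used here, its reads cannot be told apart from those of Lin28a.

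Lin28b (chromosome 10, 45376620 to 45486395, minus strand) encodes the paralog of LIN28A that acts mainly in the nucleus. Its normalized counts were 1383, 1462 and 1543 in the control, 762, 792 and 789.7 in Rbbp4Ins/Ins and 748, 696 and 669.9 in Rbbp4Ins/Del. All mutant libraries were again below all control libraries, with a log2 fold change of -0.90 (SE 0.050) in Rbbp4Ins/Ins and -1.05 (SE 0.051) in Rbbp4Ins/Del. Per kilobase of exon, Lin28a was 21.3 ± 0.858 times as high as Lin28b in the control, 14.8 ± 0.459 times in Rbbp4Ins/Ins and 15.1 ± 1.22 times in Rbbp4Ins/Del (SD, n = 3). Both LIN28 genes were therefore lower, Lin28a by more. In bulk RNA, fewer cells with a transcript and less of it per cell cannot be told apart.

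Dis3l2 (chromosome 1, 86703808 to 87050095, plus strand), which encodes the exonuclease that degrades uridylated pre-let-7, had the lowest level per kilobase of the 8. It had 463, 477 and 492 normalized counts in the control, 341, 377 and 343 in Rbbp4Ins/Ins and 322, 328 and 312 in Rbbp4Ins/Del. The lines did not overlap in any pair, and the log2 fold change was -0.43 (SE 0.068) in Rbbp4Ins/Ins and -0.57 (SE 0.070) in Rbbp4Ins/Del.

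Trim71 and Hmga2 encode targets of let-7 that are themselves linked to the pluripotent state, TRIM71 as an RNA-binding ubiquitin ligase homologous to LIN-41 and HMGA2 as an architectural chromatin protein. Trim71 (chromosome 9, 114507133 to 114564369, minus strand) gave normalized counts of 4594, 4441 and 4606 in the control, 3856, 3983 and 3650.3 in Rbbp4Ins/Ins and 4348, 3554 and 3505 in Rbbp4Ins/Del. All mutant libraries were below all controls, but the first Rbbp4Ins/Del library stood well above the other 2 of its line. The log2 fold change was -0.25 (SE 0.046) in Rbbp4Ins/Ins and -0.26 (SE 0.046) in Rbbp4Ins/Del, and -0.36 in Rbbp4Ins/Del without that library. With DESeq2 in place of edgeR, Trim71 was not called in either mutant.

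Hmga2 (chromosome 10, 120361275 to 120476469, minus strand) went apart from the other members. Its normalized counts were 871, 875 and 887 in the control, 812, 817 and 807 in Rbbp4Ins/Ins and 1382, 1395 and 1431 in Rbbp4Ins/Del. The 3 lines did not overlap, with Rbbp4Ins/Ins slightly under the control and Rbbp4Ins/Del far above both. Its log2 fold change was -0.11 (SE 0.048) in Rbbp4Ins/Ins, which was not called, and 0.68 (SE 0.045) in Rbbp4Ins/Del.

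The Igf2bp genes encode 3 related RNA-binding proteins, of which Igf2bp1 was by far the most abundant per kilobase. Igf2bp1 (chromosome 11, 95957163 to 96005940, minus strand) gave normalized counts of 19404, 19561 and 20013 in the control, 16082, 16722 and 16377 in Rbbp4Ins/Ins and 17207, 16286 and 16687 in Rbbp4Ins/Del. Igf2bp3 (chromosome 6, 49085223 to 49214957, minus strand) had 3740.3, 3646 and 3498 in the control, 2906, 2971 and 2933 in Rbbp4Ins/Ins and 2887, 2737 and 2986 in Rbbp4Ins/Del. For both genes the mutant libraries lay below the controls and the mutant lines overlapped each other.
The log2 fold changes of Igf2bp1 were -0.26 (SE 0.027) and -0.23 (SE 0.027), and those of Igf2bp3 -0.31 (SE 0.035) and -0.34 (SE 0.035), for Rbbp4Ins/Ins and Rbbp4Ins/Del in turn. Malsu1 overlaps 18.74% of the exonic length of Igf2bp3 on the opposite strand, so the count of Igf2bp3 is less certain.

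Igf2bp2 (chromosome 16, 22059009 to 22163299, minus strand) differed least. Its normalized counts were 2995, 2942 and 2832 in the control, 2834, 2782 and 2742 in Rbbp4Ins/Ins and 2768, 2686 and 2812 in Rbbp4Ins/Del. The highest Rbbp4Ins/Ins library reached the lowest control, and the log2 fold changes of -0.07 (SE 0.034) and -0.09 (SE 0.034) were not called. Of the summed level of the Igf2bp genes per kilobase, Igf2bp1 made up 70.8% ± 0.975 in the control, 69.7% ± 0.424 in Rbbp4Ins/Ins and 70.5% ± 0.600 in Rbbp4Ins/Del (SD, n = 3), and the libraries of each mutant overlapped the control. The share of Igf2bp2 was 13.29% to 14.11% in the control, 15.23% to 15.95% in Rbbp4Ins/Ins and 14.93% to 15.38% in Rbbp4Ins/Del, above the control in all mutant libraries. That of Igf2bp3 was 14.9% to 15.99%, 14.76% to 14.84% and 14.09% to 14.82%, below the control in all mutant libraries.

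With the quasi-likelihood test of edgeR and a limit of 0.01 on the adjusted p, 6 of the 8 genes were called in Rbbp4Ins/Ins, all lower, where 58.4% of all tested genes were called and 29.4% were called lower. In Rbbp4Ins/Del 7 were called, 6 lower and Hmga2 higher, where 62.5% of all tested genes were called and 31.9% were called lower. The libraries of the mutant and the control did not overlap for 7 of the 8 in Rbbp4Ins/Ins and for all 8 in Rbbp4Ins/Del, against 69.1% and 72.8% of all tested genes. The median log2 fold change of the 8 was -0.28 and -0.30, against 0.0038 and -0.011 over all tested genes. With DESeq2 5 were called in Rbbp4Ins/Ins and 6 in Rbbp4Ins/Del, as Trim71 was not. These genes were chosen on these contrasts, which share the control libraries, and nothing is read from the counts.

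**Figure D3:**
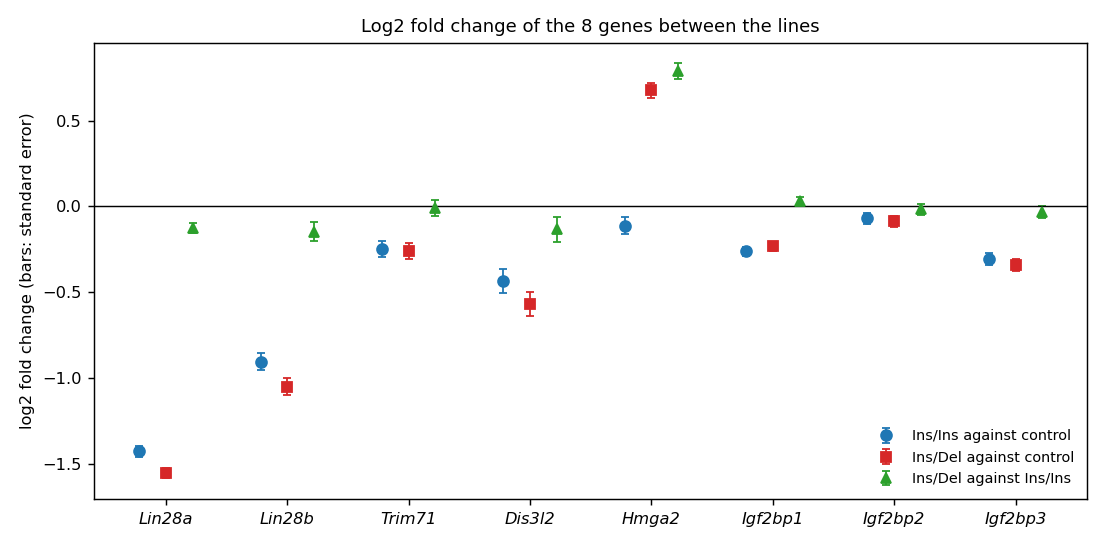
Log2 fold change of each gene between the lines, with its standard error as bars, from edgeR. Circles and squares give Rbbp4Ins/Ins and Rbbp4Ins/Del against the control, and triangles give Rbbp4Ins/Del against Rbbp4Ins/Ins, where Hmga2 stands at 0.79 and the other 7 genes between -0.15 and 0.03.

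The comparison of Rbbp4Ins/Del with Rbbp4Ins/Ins was not used to choose the genes and asks whether the mutant lines differ from each other. Of the 8 genes 2 were called, Hmga2 and Lin28a, where 10.8% of all tested genes were called. Hmga2 was 1.73-fold higher in Rbbp4Ins/Del (log2 difference 0.79, SE 0.045, adjusted p = 2.3e-16 in the quasi-likelihood test of edgeR, adjusted after Benjamini and Hochberg), with all 3 libraries above those of Rbbp4Ins/Ins. Lin28a was 1.09-fold lower (log2 difference -0.13, SE 0.031, adjusted p = 0.00278 by the same edgeR test), with all 3 libraries below. The call for Lin28a rests on small differences: without any one of 3 libraries its adjusted p in the edgeR test rose to between 0.022 and 0.035, with a log2 difference between -0.11 and -0.10.

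The other 6 genes were not called between the mutants. Lin28b had a log2 difference of -0.15 (95% interval -0.25 to -0.038, adjusted p = 0.0587 by the edgeR test), and Dis3l2 had -0.13 (95% interval -0.28 to 0.0098, adjusted p = 0.215 by the edgeR test), although the libraries of the lines did not overlap for either. Such separation was seen for 4 of the 8 genes and for 34.1% of all tested genes. For Igf2bp1 the difference was 0.03 (95% interval -0.023 to 0.082), for Igf2bp2 -0.02 (95% interval -0.084 to 0.049) and for Igf2bp3 -0.03 (95% interval -0.10 to 0.035). For Trim71 it was -0.01 (95% interval -0.10 to 0.081) and -0.12 without the first Rbbp4Ins/Del library, with an adjusted p of 0.917 and 0.031 in the edgeR test. The intervals leave room for differences of these sizes and do not show that the lines are alike.

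Levels can be compared between the genes per kilobase of exon. In the control the order was Lin28a with 3432 ± 57.4 (SD, n = 3) normalized counts per kilobase, Igf2bp1 with 2031 ± 32.6, Trim71 with 487 ± 9.83, Igf2bp3 with 445 ± 15.0, Igf2bp2 with 395 ± 11.2, Lin28b with 161 ± 8.80, Hmga2 with 130 ± 1.20 and Dis3l2 with 53.6 ± 1.63. No neighbours in this order overlapped. In the mutants Lin28a came after Igf2bp1, with 1275 ± 36.3 against 1693 ± 33.1 (SD, n = 3) in Rbbp4Ins/Ins and 1170.0 ± 33.8 against 1728 ± 47.7 (SD, n = 3) in Rbbp4Ins/Del. Igf2bp2 came before Igf2bp3 in Rbbp4Ins/Ins, with 376 ± 6.21 against 360 ± 4.04 (SD, n = 3), while in Rbbp4Ins/Del the libraries of Igf2bp2 overlapped both those of Trim71 and those of Igf2bp3. Hmga2 came before Lin28b in both mutants, with 207 ± 3.77 against 77.7 ± 4.41 (SD, n = 3) in Rbbp4Ins/Del. Which isoforms were expressed is not known, and all annotated exons of a gene entered its length.

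Markers of other cell types are given as summed levels, in which a few abundant genes weigh most. The summed level of 6 neural progenitor markers was 2568 to 2584 normalized counts in the control, 429 to 472 in Rbbp4Ins/Ins and 406 to 443 in Rbbp4Ins/Del. In it Pax6 and Nes fell in both mutants, with log2 fold changes of -3.19 and -2.93 in Rbbp4Ins/Ins and -4.50 and -3.08 in Rbbp4Ins/Del, and the other 2 tested genes were not called. That of 8 fibroblast or mesenchyme markers was 623 to 732, 279 to 301 and 355 to 388. Of its 5 tested genes Col1a1, Col1a2, Col3a1 and Pdgfrb fell in both mutants, while Thy1 rose from a mean of 45.7 to 246 and 312. That of 6 mesoderm and primitive streak markers was 298 to 331, 390 to 429 and 378 to 403. It was carried by Eomes, which rose from a mean of 193 to 322 and 271, while T fell from 44.6 to 2.34 and 0.301. In Rbbp4Ins/Del Kdr was also called higher and Hand1 lower, with log2 fold changes of 1.06 and -1.07. The sum of 8 primitive endoderm markers was 1725 to 1854, 1686 to 1815 and 2332 to 2352, and was carried by Lama1, with means of 1398, 1484 and 2013. Of the 7 tested, 1 was called higher and 2 lower in Rbbp4Ins/Ins, and 5 higher and 2 lower in Rbbp4Ins/Del, where Gata4 and Dab2 were the lower ones in both. The called share of these 7 was 42.9% and 100%, against 58.4% and 62.5% of all tested genes. Every marker had a read in each line except Neurog2 in Rbbp4Ins/Del and Mesp1 in the control. The part of such cells in the levels of the 8 genes was not tested.

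The pluripotency genes belong to the choice of the set, and their values are a description only. Of 24 such genes, 15 were called higher and 6 lower in Rbbp4Ins/Ins and 14 higher and 4 lower in Rbbp4Ins/Del, with medians of 0.37 and 0.29 on the log2 scale. The called share was 87.5% and 75.0%, against 58.4% and 62.5% of all tested genes, whose medians were 0.0038 and -0.011. Tbx3, a transcription factor of naive cells, averaged 740 ± 19.7 in the control, 2787 ± 105 in Rbbp4Ins/Ins and 3205 ± 115 in Rbbp4Ins/Del (normalized counts, SD, n = 3). Tcl1, a coactivator of the kinase AKT, was also over 2-fold higher in both, and Gbx2 was over 2-fold lower in both. The log2 fold changes of Gbx2 were -1.70 and -1.33. Utf1 (-0.48 and -0.72), Dppa3 (-0.28 and -1.21) and Dppa4 (-0.19 and -0.16) were also called lower in both, and Pou5f1 and Stat3 in Rbbp4Ins/Ins only. Lin28a, with log2 fold changes of -1.43 and -1.55, was lower in both mutants, as were Gbx2, Utf1, Dppa3 and Dppa4.

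Of 25 genes for the processing and decay of let-7 precursors, 5 were called higher and 6 lower in Rbbp4Ins/Ins, and 6 higher and 8 lower in Rbbp4Ins/Del. The called share was 44.0% and 56.0%, below the 58.4% and 62.5% of all tested genes, with medians of -0.019 and -0.0059 against 0.0038 and -0.011 over all tested genes. The microprocessor gene Drosha had log2 fold changes of 0.02 and -0.04, neither of which was called, and Dicer1, which encodes the nuclease that cuts the precursor, fell in both, with -0.21 and -0.27. The uridylyltransferase gene Tut4 fell in both (-0.23 and -0.19), while Tut7 rose in Rbbp4Ins/Ins (0.18) and had 0.10 in Rbbp4Ins/Del, which was not called. Prkra, which encodes a partner of Dicer, fell with log2 fold changes of -0.87 and -1.31, and the RNA-binding protein gene Msi1 fell with -0.89 and -1.09. The Argonaute gene Ago1 fell with -0.84 and -0.93. Trim25, a cofactor of uridylation, rose with 0.50 and 0.61. Mettl1 (0.56 and 0.57) and Khsrp (0.24 and 0.16) were also called higher in both.

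Zc3h12a, which encodes an endonuclease that cuts precursor loops and inflammatory messenger RNAs, was the 1 gene of this list past 2-fold in both mutants, as were 11.2% of all tested genes. It had 88.9, 113 and 83.4 normalized counts in the control, 219, 213 and 197 in Rbbp4Ins/Ins and 274, 243 and 264 in Rbbp4Ins/Del, so all mutant libraries were above all controls. The log2 fold change was 1.15 (SE 0.114) and 1.45 (SE 0.110).

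Few reads fell on let-7 genes themselves, as the libraries were made from messenger RNA and do not measure mature microRNAs. The 12 rows for let-7 hairpins held between 8 and 23 reads per library in all, 4 had no read in any library, and no row had more than 15 in a library. Mirlet7d, the only hairpin row with enough reads for a test, had 15, 11 and 8 reads in the control, 6, 9 and 14 in Rbbp4Ins/Ins and 7, 5 and 4 in Rbbp4Ins/Del. The reads in Rbbp4Ins/Ins overlapped those of both other lines, those in Rbbp4Ins/Del lay below the control, and it was not called in any comparison. Of the host genes, Mir100hg had 13, 22 and 24 reads in the control, 3, 1 and 7 in Rbbp4Ins/Ins and 4 in each Rbbp4Ins/Del library, and was called lower in both, while Mir99ahg had no read in any library. Huwe1, a ubiquitin ligase gene that hosts Mir98 and Mirlet7f-2, had log2 fold changes of -0.11 and -0.12, both called. Wdr82, near Mirlet7g, had 0.12, which was called, and 0.06, which was not.

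**Figure D4:**
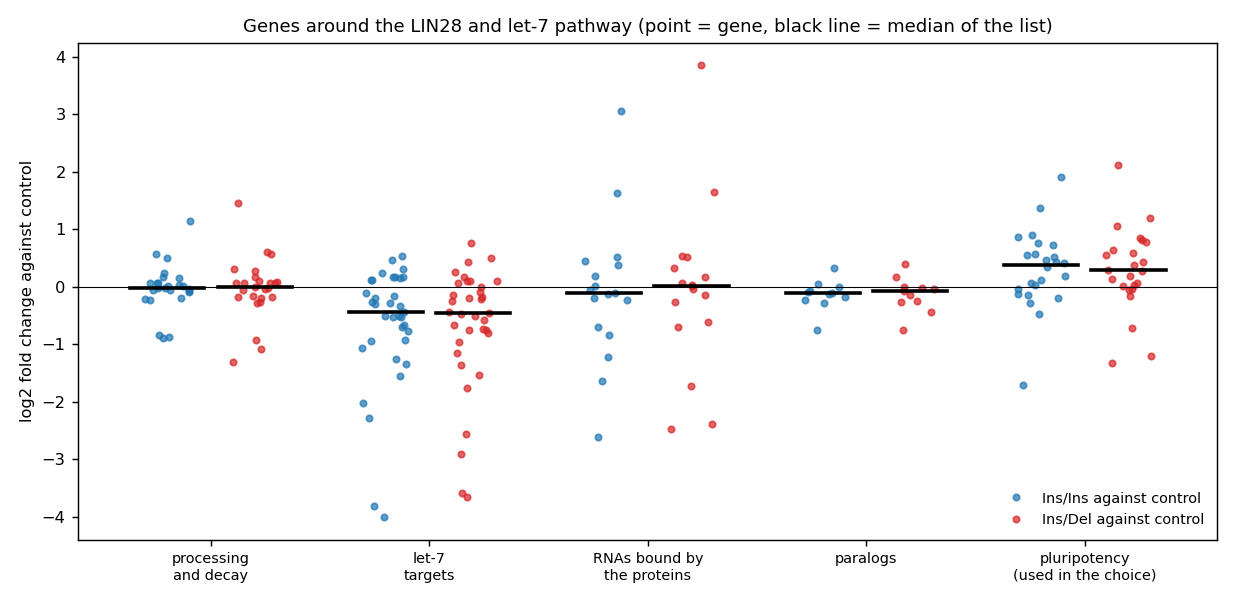
Log2 fold change against the control of each tested gene in 5 lists around the pathway, with the median of the list as a black line. The medians of the let-7 targets are -0.45 and -0.46, and those of the processing genes are -0.019 and -0.0059. The lists were written with earlier results of these data known, and the pluripotency genes were part of the choice of the set.

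Of 35 tested genes on a list of textbook targets other than the 8, 24 were called lower and 7 higher in Rbbp4Ins/Ins, and 22 lower and 5 higher in Rbbp4Ins/Del. Those called made up 88.6% and 77.1% of the list, against 58.4% and 62.5% of all tested genes, of which 29.4% and 31.9% were called lower. Their median log2 fold change was -0.45 and -0.46, against 0.0038 and -0.011 over all tested genes. The list was written by hand with earlier results of these data known, so its counts and medians are a description. Of all tested genes, 11.2% were past 2-fold in both mutants, counting higher and lower together. The 7 genes of the list lower by more than 2-fold in both mutants were Mycn, Igf1r, Irs2, Fign, Fndc3a, Ccnd2 and Thbs1. They encode a MYC family transcription factor, the IGF1 receptor and its adaptor, an AAA ATPase, a fibronectin type III domain protein, a cyclin of the G1 phase and a secreted matrix protein.

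Mycn had 5699, 5505 and 5457 normalized counts in the control, 2351, 2299 and 2313 in Rbbp4Ins/Ins and 1684, 1613 and 1631 in Rbbp4Ins/Del, so the lines stood apart in every pair. Igf1r had 1606, 1574 and 1658 in the control, 557, 576 and 517 in Rbbp4Ins/Ins and 561, 563 and 537 in Rbbp4Ins/Del, with both mutants at a similar level. Irs2 had 1431, 1361 and 1283 in the control, 292, 275 and 265 in Rbbp4Ins/Ins and 230.0, 253 and 208 in Rbbp4Ins/Del. The 7 genes were picked as over 2-fold lower in both mutants, so it adds nothing that their mutant libraries were below all their controls. Of all tested genes, 69.1% in Rbbp4Ins/Ins and 72.8% in Rbbp4Ins/Del did not overlap the control. Thbs1 and Ccnd2 had the largest log2 fold changes, of -3.81 and -4.01 in Rbbp4Ins/Ins and -3.66 and -3.59 in Rbbp4Ins/Del. Fign had -2.03 and -2.90, and Fndc3a -1.34 and -1.36.

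Not every gene of this list holds the seed match. It was found in the 3′ UTR of 29 of the 38 listed genes, and Fign held 3, Igf1r 2, and Irs2 and Fndc3a 1 each, while none was found in the UTRs taken for Mycn, Ccnd2 and Thbs1. Of the 26 tested genes with a match 17 were lower in Rbbp4Ins/Ins and 16 in Rbbp4Ins/Del, and of the 9 without one 7 and 6 were lower. Genes called lower were thus found both with and without a match. Sites that pair with let-7 in other ways were not searched, and the part of let-7 in these levels was not tested. Among all tested genes outside the 8, the 1404 with a match had a median log2 fold change of -0.056 in Rbbp4Ins/Ins and -0.062 in Rbbp4Ins/Del, and 36.5% and 37.3% of them were called lower. The 11867 genes without a match had medians of 0.0079 and -0.0077, and 29.4% and 32.2% were lower. Genes with a match also had longer 3′ UTRs, with a median of 2324 against 1066 bases, and the part of this length was not tested.

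Between the mutants, 11 of the 35 targets were called, 5 higher and 6 lower in Rbbp4Ins/Del, against 10.8% of all tested genes. Fign was the only one past a log2 difference of 0.5 (-0.87, SE 0.187, adjusted p = 0.00069 by the edgeR test), with 53.9, 51.9 and 64.5 normalized counts in Rbbp4Ins/Ins and 34.8, 28.9 and 28.9 in Rbbp4Ins/Del. The targets that differed did not go one way, as Cdk6 and Myc had log2 differences of 0.40 and 0.43, and Nr6a1 and Arid3a of -0.21 and -0.42.

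Of 17 genes whose RNAs are known to be bound by LIN28, IGF2BP or TRIM71, 6 were called higher and 9 lower in Rbbp4Ins/Ins, and 6 higher and 7 lower in Rbbp4Ins/Del, with medians of -0.11 and 0.0072 against 0.0038 and -0.011 over all tested genes. The called share was 88.2% and 76.5%, against 58.4% and 62.5% of all tested genes. Over 2-fold in both mutants were Igf2, Cd44 and Mapk4, which were lower, and H19 and Cdkn1a, which were higher. Past the same limit in both mutants were 11.2% of all tested genes. Igf2, the growth factor whose RNA gave the IGF2BP proteins their name, had 1530.3, 1502 and 1472 normalized counts in the control, 641, 678 and 617 in Rbbp4Ins/Ins and 259, 308 and 290.4 in Rbbp4Ins/Del. H19, the imprinted noncoding RNA next to Igf2, had 88.1, 75.4 and 70.4 in the control, 679, 650.0 and 643 in Rbbp4Ins/Ins and 1046, 1204 and 1159 in Rbbp4Ins/Del. The lines stood apart in every pair for both genes, in opposite order.

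Both neighbours also differed between the mutants, Igf2 by -1.17 (SE 0.067, adjusted p = 2.3e-16 by the edgeR test) and H19 by 0.79 (SE 0.057, adjusted p = 2.3e-13 by the edgeR test) on the log2 scale. Cdkn1a, which encodes the cell cycle inhibitor p21 and is a target of TRIM71, had 513, 505 and 485 normalized counts in the control, 1574, 1514 and 1567 in Rbbp4Ins/Ins and 1476, 1639 and 1597 in Rbbp4Ins/Del. It was higher in all mutant libraries, with log2 fold changes of 1.63 (SE 0.051) and 1.65 (SE 0.051). Actb, Pou5f1 and Ccna2, also bound by these proteins, had log2 fold changes between -0.12 and 0.03.

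Of 11 paralogs of the 8 genes, 1 was called higher and 4 lower in Rbbp4Ins/Ins and 2 higher and 3 lower in Rbbp4Ins/Del, with medians of -0.10 and -0.072. The called share was 45.5% in each, below the 58.4% and 62.5% of all tested genes. Hmga1, the paralog of Hmga2, averaged 652 ± 43.9 in the control, 559 ± 17.2 in Rbbp4Ins/Ins and 544 ± 25.4 in Rbbp4Ins/Del (normalized counts, SD, n = 3). Its log2 difference between the mutants was -0.03 (SE 0.062), which was not called. Trim2, a relative of Trim71, fell in both mutants, with a log2 fold change of -0.76 in each. The exonuclease genes Dis3 and Dis3l had log2 fold changes between -0.28 and 0.0018. Ybx1, a cold-shock domain gene like Lin28a, rose in both (0.33 and 0.39).

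**Figure D5:**
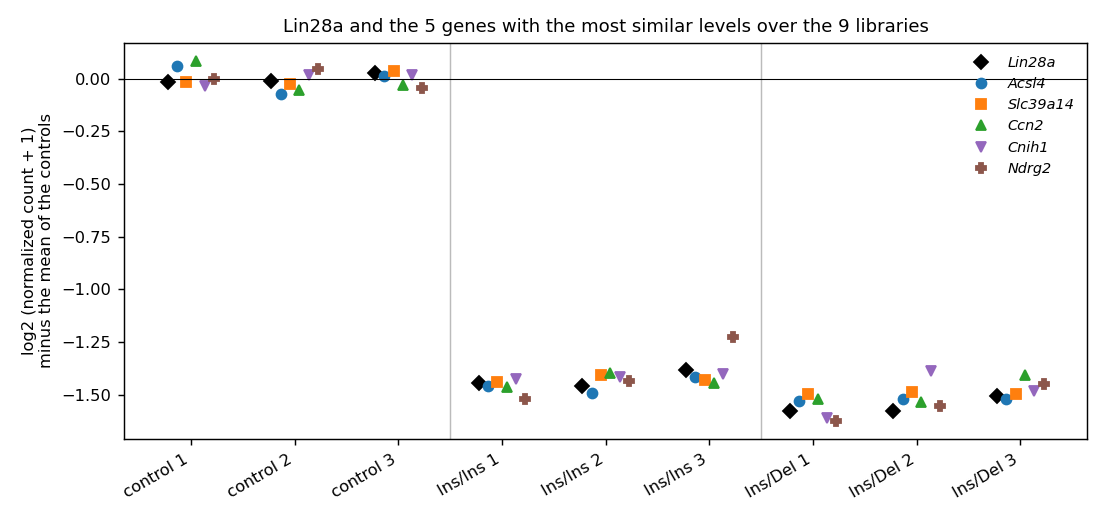
Lin28a and the 5 genes nearest to it over the 9 libraries, on the scale of log2 (normalized count + 1) minus the mean of the controls. All 6 genes lie within 0.09 of 0 in the controls and between -1.63 and -1.22 in the mutants.

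The genes whose levels were most like those of Lin28a were Acsl4, Slc39a14, Ccn2, Cnih1 and Ndrg2, out of 12712 genes with a mean normalized count above 20. Likeness was the root mean square difference, over the 9 libraries, of log2 (normalized count + 1) taken relative to the control mean, and it was 0.0441, 0.0461, 0.0657, 0.067 and 0.0712. Acsl4, a fatty acid activating enzyme, had means of 1888, 687 and 655 normalized counts in the control, Rbbp4Ins/Ins and Rbbp4Ins/Del, and Slc39a14, a zinc transporter, had 2234, 831 and 792. Lin28b was number 617 in this order, at 0.424, and Hmga2 number 9949, at 1.49. Of the 12711 genes other than Lin28a, 290 had a Pearson correlation with it above 0.99 across the 9 libraries, a measure that takes no account of the size of the change.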

How the data were processed

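The authors aligned paired-end reads of 50 bp to mm10 with STAR 2.7.3 and counted them per gene with HTSeq, and deposited the whole-number counts with no scaling. The libraries were made with a kit for messenger RNA. The version, annotation and strand setting of HTSeq are not given in the sources used here. The 9 libraries held 15838064 to 21366868 counts, and the biological coefficient of variation was 0.0286. Here edgeR 4.0.16 in R 4.3.3 was used to filter genes with filterByExpr, scale by TMM and fit the quasi-likelihood model to 3 lines in one fit. P-values were adjusted over 14125 genes by the Benjamini-Hochberg method, and genes were called at 0.01. Standard errors were taken from the log2 fold change and F, and 95% intervals are 1.96 standard errors on either side.

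Members and lists were chosen with earlier results of these data known. From the lists, genes past 0.01 and 2-fold in both mutants, or past 0.01 and a log2 difference of 0.5 between mutants, with a mean above 20, were named, as were all let-7 rows and the 5 genes nearest to Lin28a. A few list genes were named besides for their role in the pathway, with their values seen. In simulated counts with 200 changed genes, edgeR recovered 181 in Rbbp4Ins/Ins and 182 in Rbbp4Ins/Del among 13888 genes, with 6 and 3 false calls, and made 2 false calls between the mutants, where no gene was changed. Far fewer genes were changed there than the 58.4% and 62.5% called in the data, and the noise was drawn from the fitted spread. These counts of false calls therefore do not carry over to the data. Gene models and 3′ UTRs come from GENCODE M21 and microRNAs from RefSeq, both on GRCm38. Alternatives were DESeq2 1.42.0, its size factors, total counts, no filter, only the lines compared, a replicate block, each library left out and a limit of 0.05. Figures were drawn with matplotlib 3.10.9.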

Additional observations from a re-analysis of the deposited data

Results flagged for a closer look

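The mutant lines differed from each other, at an adjusted p of at most 0.01 in edgeR's quasi-likelihood test, in 2 of the 8 genes and, past a log2 difference of 0.5, in 8 genes of the other lists. The values are log2 differences of Rbbp4Ins/Del from Rbbp4Ins/Ins, and 10.8% of all tested genes differed at the limit of 0.01 alone. The share of all tested genes also past 0.5 was not worked out, so nothing is read from the count of 8. Lin28a differed by -0.126 and Hmga2 by 0.788. The let-7 target Fign differed by -0.875. Igf2 differed by -1.17 and its neighbour H19 by 0.788. Dppa3, a gene of naive pluripotent and germ cells, differed by -0.926. Of the markers of other cell types, Sox7 differed by 0.590 and Pdgfra by 0.935, both from the primitive endoderm list, Pax6 from the neural list by -1.305 and Kdr from the mesoderm list by 0.776. Each line is 1 clone, so the genotype and the clone cannot be told apart.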

How the results depend on the processing

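The counts of called members were 6, 7 and 2 in Rbbp4Ins/Ins, Rbbp4Ins/Del and the comparison of the mutants, and 6, 7 and 1 to 2 with each library left out. Pairs of libraries with the same replicate number had correlations of their deviations from the line means between -0.0277 and 0.0559. Other pairs had -0.0566 to 0.0619. In 11 of 18 comparisons the same number matched best among the 3 libraries of a line. The libraries were thus not shown to belong together by number, and a pairing was not excluded. The replicate number as a block gave 6, 7 and 2 called members. With each library left out, called processing genes between the mutants ranged from 1 to 4 (4 with all), called paralogs between the mutants from 0 to 2 (1 with all) and called paralogs in Rbbp4Ins/Ins from 3 to 6 (5 with all). At a limit of 0.05, 6 RNAs bound by the proteins and 3 paralogs were called between the mutants, in place of 3 and 1. The difference of Trim71 between the mutants turned from -0.010 to 0.00061 with DESeq2's size factors and ranged from -0.117 to 0.0429 with each library left out, that of Igf2bp2 from -0.032 to 0.0013 and that of Igf2bp3 from -0.063 to 3.0e-05. With DESeq2, Trim71 was no longer called in either mutant (log2 fold changes -0.25 and -0.25), and with total counts Igf2bp2 was called in Rbbp4Ins/Del (-0.10). The call for Lin28a between the mutants was lost without Rbbp4Ins/Ins library 3 or Rbbp4Ins/Del library 1 or 2. The cause was not tested. The match of 8 bases in place of 7 left 7 members with a match, and by Pearson correlation 1 of the 5 genes nearest to Lin28a was shared. In all, 221 recomputed counts stayed within 1.5 times their value and 19 did not.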

Other observations

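Genes with many let-7 seed matches were looked at after the values of the 8 genes had been seen. Of 32 genes with at least 3 matches in the 3′ UTR, 23 other than the 8 were tested, and 14 of them were called lower and 3 higher in Rbbp4Ins/Ins, with 13 lower and 2 higher in Rbbp4Ins/Del. Of all tested genes 29.4% and 31.9% were called lower. The median log2 fold change of the 23 was -0.31 and -0.34, against 0.0038 and -0.011 over all tested genes. With at least 2 matches, 176 genes other than the 8 were tested, these 23 among them. Of the 176, 36.9% and 35.8% were called lower, with medians of -0.071 and -0.047, against 36.5% and 37.3% called lower with at least 1 match. Fign, Nr6a1 and Hic2 of the 23 are also on the list of textbook targets. Nr6a1, an orphan nuclear receptor gene with 8 matches, averaged 3525 ± 108 in the control, 1821 ± 72.3 in Rbbp4Ins/Ins and 1579 ± 48.7 in Rbbp4Ins/Del (normalized counts, SD, n = 3). Trim67 and Slc22a23, with 3 matches each, had log2 fold changes of -1.11 and -2.01 in Rbbp4Ins/Ins and -1.50 and -2.27 in Rbbp4Ins/Del. Mcf2l, with 7 matches, was not called in either mutant, and Trim6, with 6 matches, was higher, with log2 fold changes of 0.33 and 0.39. Some of the annotated UTRs in this group are unusually long, up to 122583 bases, and which isoforms these cells express is not known.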
